A study of Mus musculus with 6 samples.

Results

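Single-exon circular RNAs (circRNAs) of the mouse spinal cord were examined: closed RNA loops in which the end of one exon is joined back to the start of that same exon. They were taken from a deposited table of circRNAs as every entry classed as exonic and listed with 1 exon, whatever its level. This rule gave 840 single-exon circRNAs out of 17440 circRNAs, or 4.82%. A further 15976 entries were exonic with more than 1 exon, and 624 were intronic. The 840 came from 762 host genes, 14.3% of the 5334 genes with any circRNA. Of these hosts, 692 had 1 single-exon circRNA, 62 had 2 and 8 had 3. Messenger RNA genes hosted 832 of the circles and long noncoding RNA genes hosted 8. The cord came from male C57BL/6 mice, an inbred strain, aged 8 weeks. The TSCI group received a moderate traumatic spinal cord injury, a weight-drop contusion after the vertebral arch was opened at a mid-thoracic level. The sham group had the same opening of the vertebrae (laminectomy) without the contusion. Each group had 3 libraries of ribosome-depleted, stranded total RNA. The labels name 48 mice in sets of 8. They state neither a pooling of mice within a set nor the time after injury. The p-values therefore measure the spread between these libraries only, which may not be a spread between mice.

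A circRNA forms when the spliceosome joins a downstream splice donor to an upstream acceptor (back-splicing) in place of the usual linear order. Pairing of sequences in the flanking introns, or binding of proteins such as Qk and Mbnl1, brings the ends together, while Adar and Dhx9 oppose such pairing. Having no free ends, circRNAs resist exonucleases and can accumulate in long-lived cells, and nervous tissue is known for a large repertoire of them. A circle made of 1 exon must bend a single exon onto itself, and well-known examples come from long exons near the start of a gene, such as the second exon of Hipk3, Hipk2 and Zfp609.

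Counts were scaled to CPM, meaning counts per 1e6 of each library's summed circRNA counts without those of Ss18. That one gene took 0.485%, 23.2% and 2.05% of all circRNA counts in TSCI replicates 1 to 3, and 0.351%, 38.1% and 17.4% in sham replicates 1 to 3. Libraries held 3311650 to 7152390 counts after this step. The libraries did not group by injury. Over the 840 single-exon circRNAs, TSCI replicate 1 and sham replicate 1, both run on sequencing lane 8, had a Spearman correlation of 0.852 with each other. TSCI replicates 2 and 3, both from lane 1, had 0.886, and sham replicates 2 (lane 3) and 3 (lane 1) had 0.775. Sham replicate 1 and sham replicate 2 had only 0.412. Nor did lane order the libraries throughout. TSCI replicate 3 had 0.806 with TSCI replicate 1 and 0.799 with sham replicate 1, but 0.690 with sham replicate 3 of lane 1. TSCI replicate 2, by contrast, had 0.804 with sham replicate 3 of the same lane and 0.675 with TSCI replicate 1. These coefficients describe levels of the same circRNAs and share their depth differences. Differences within lanes 8 and 1 are given below for the class and for the circles of lowest p. Those of single circles are on the log2(CPM + 1) scale, and lane 3 held a sham library only.

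The junctions that define the circles named most often below are shown first, so that each value can be tied to its sequence. All coordinates are GRCm38; each of the 840 circles matched an annotated exon of GENCODE M21 at both ends. Each line reads 5′ to 3′ on the RNA strand across the back-splice: the last bases of the exon in lower case, then the first bases of the same exon in capitals. Where the exon holds non-coding bases in the transcript named for the circle, 15 bases on each side are given, otherwise 30.
Hipk3 (chr2:104470749-104471847, minus strand, exon 2, 1099 nt): atctcgctactacagGTATGGCCTCACAAG
Hipk2 (chr6:38818230-38819313, minus strand, exon 2, 1084 nt): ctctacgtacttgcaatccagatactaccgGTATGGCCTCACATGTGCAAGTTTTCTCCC
Zfp609 (chr9:65794622-65795495, minus strand, exon 2, 874 nt): gtcaagtctgaaaagCAATGATGTTGTCCA
Kat6b (chr14:21516626-21517498, plus strand, exon 2, 873 nt): catgagaaagaccagGTCTTGGTTTCCTAA
Cdyl (chr13:35815909-35816575, plus strand, exon 5, 667 nt): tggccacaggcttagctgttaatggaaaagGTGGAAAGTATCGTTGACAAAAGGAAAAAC
Hipk2 and Hipk3 encode related nuclear kinases, and their circularised second exons begin with the same 13 bases, GTATGGCCTCACA. The circles with the lowest p in the injury comparison follow, those with higher TSCI levels before those with lower ones.
Cd84 (chr1:171851803-171852135, plus strand, exon 3, 333 nt): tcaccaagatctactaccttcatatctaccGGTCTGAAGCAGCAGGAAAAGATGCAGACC
Milr1 (chr11:106754782-106755051, plus strand, exon 3, 270 nt): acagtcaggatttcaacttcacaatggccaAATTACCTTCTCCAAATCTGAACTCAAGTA
Gm5150 (chr3:15990630-15990986, minus strand, exon 2, 357 nt): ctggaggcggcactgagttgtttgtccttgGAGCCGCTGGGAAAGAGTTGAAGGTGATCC
Dusp6 (chr10:99264544-99264981, plus strand, exon 2, 438 nt): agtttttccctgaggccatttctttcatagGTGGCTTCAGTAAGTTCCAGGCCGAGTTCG
Akna (chr4:63394586-63395634, minus strand, exon 3, 1049 nt): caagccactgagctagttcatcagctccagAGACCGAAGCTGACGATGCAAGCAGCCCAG
Brinp1 (chr4:68904737-68905004, minus strand, exon 2, 268 nt): atataaaatatacagGACTCCACAGAATGG
Gpc5 (chr14:115369532-115370226, plus strand, exon 3, 695 nt): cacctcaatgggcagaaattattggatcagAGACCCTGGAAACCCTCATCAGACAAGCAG
Grm7 (chr6:111358145-111359080, plus strand, exon 9, 936 nt): caatcagcagaaaagATAGAGGACATGCAG
Pdzd2 (chr15:12592081-12592910, minus strand, exon 3, 830 nt): tgtcagtggggccagGTGTGAATGAGCCCA
Chn1 (chr2:73679615-73679903, minus strand, exon 6, 289 nt): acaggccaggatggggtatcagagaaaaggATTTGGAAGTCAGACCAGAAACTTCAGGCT
The circle of Pea15a, which had the highest mean level per length, is short enough to show whole (chr1:172199111-172199266, minus strand, exon 3, 156 nt, coding throughout). Here the capitals mark the 15 bases at each end, which meet in the circle.
Pea15a: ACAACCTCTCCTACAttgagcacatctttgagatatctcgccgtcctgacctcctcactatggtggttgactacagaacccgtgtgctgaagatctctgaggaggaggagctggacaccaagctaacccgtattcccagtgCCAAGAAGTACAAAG

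The exons that formed single-exon circles were long and flanked by long introns. Their median length was 408 nt (quartiles 239 and 767, range 119 to 5772), against 123 nt (quartiles 89 and 165) for 174834 other internal exons of protein-coding genes. The circularised exons could come from annotated transcripts of any type, retained-intron ones included. The other exons came from protein-coding transcripts only. The other internal exons of the same hosts had a median of 132 nt. Exons over 300 nt made up 62.4% of the circles (524 of 840), 4.33% of other internal exons and 5.05% of those in the host genes. Multi-exon circRNAs, whose spliced median was 531 nt over a median of 4 exons, had a median of 132 nt per exon. The longest class, over 1000 nt, held 137 single-exon circles, among them Akap6 (3388 nt) and Ash1l (4558 nt). The intron upstream of a circularised exon had a median of 13790 nt, against 1341 nt for other internal exons and 2142 nt within the host genes. Downstream introns had medians of 11552 nt, against 1251 nt and 2008 nt. Both introns exceeded 10 kb at 354 circles (42.1%), but at 2.82% of other internal exons.

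**Figure D1:**
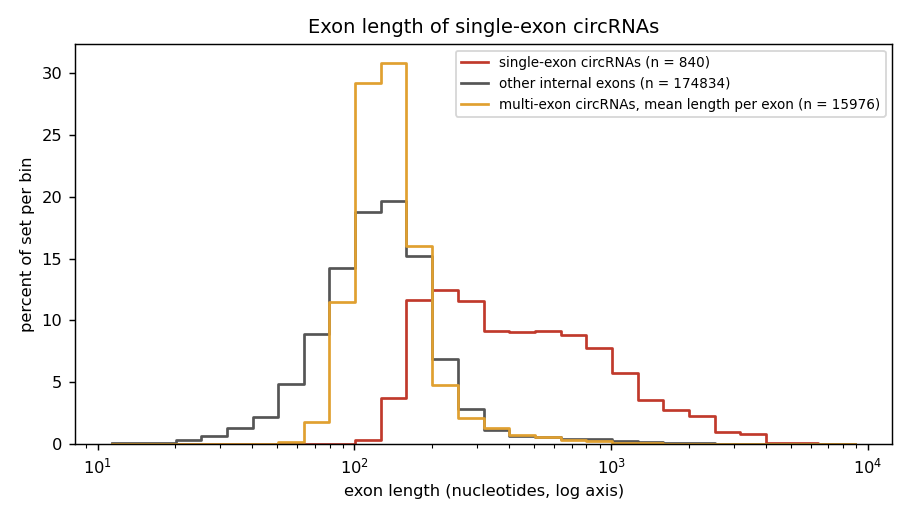
Distribution of exon length (nucleotides, log axis) in percent of each set per bin, for 840 single-exon circRNAs, 174834 other internal exons and the mean length per exon of 15976 multi-exon circRNAs. The single-exon curve, with a median of 408 nt, lies to the right of the other curves, whose medians are 123 and 132 nt.

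Position within the gene was skewed to the start. Exon 2 gave 340 circles (40.5%) and exon 3 gave 161 (19.2%). By comparison, 12.3% of other internal exons, and 5.86% of those in the host genes, were second exons. No circle came from a first exon and 1 came from a last exon. The start codon lay inside 268 circles (31.9%), against 5.53% of other internal exons. Coding sequence filled 569 exons (67.7%), against 92.9% of other internal exons. It was absent from 37 in every annotated transcript that holds an exon with the same ends. Transcripts whose exons only overlapped these were not checked. A length divisible by 3, which keeps the reading frame around a circle, was found in 34.0% of the circles and 40.4% of other internal exons. The median GC content was 49.7% (quartiles 45.7% and 54.3%). These are descriptions of annotated exons, with no test.

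Most single-exon circles were present at low levels. The median of their mean CPM over 6 libraries was 13.8 (quartiles 5.95 and 33.9), against 31.8 (quartiles 15.5 and 64.1) for multi-exon circRNAs. Per length, the deposited FPKM (fragments per kilobase of exon, scaled to sequencing depth) had a median of 3.87 for single-exon, 6.96 for multi-exon and 0.580 for intronic circRNAs. A mean above 100 CPM was reached by 72 circles, and 21 stayed under 1 CPM. The 10 with the highest mean CPM held 19.7% of the summed mean CPM of the class, and the first 100 held 58.2%. A count was present in all 6 libraries for 609 of the 840. The sources used here do not define a circRNA read. The circRNA counts equalled 10.8% to 18.9% of the reads that counts and FPKM together imply, so reads of linear RNA over the same exon may be included.

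The circles with the highest mean CPM included those of a ribosomal scaffold, an adaptor protein and a splicing regulator. Rack1, a scaffold protein of the ribosome, led with 265, 5004 and 1544 CPM in TSCI replicates 1 to 3, against 79.1, 858 and 1429.6 CPM in sham replicates 1 to 3. Its exon, 758 nt of a non-coding transcript (chr11:48801663-48802420), was lowest in the lane 8 library of each group and highest in TSCI replicate 2. Rack1 has many processed copies in the genome, so its count is uncertain. Ywhag, which encodes the adaptor protein 14-3-3 gamma, had 509, 1102 and 454 CPM in TSCI and 601, 565 and 1177 CPM in sham. Its groups overlapped throughout. Pea15a, a phosphoprotein abundant in astrocytes, had 363, 1274 and 872 CPM in TSCI and 255, 326 and 708 CPM in sham. Per length it was the highest of all 840, at 359, 753 and 798 FPKM in TSCI, against 307, 198 and 405 FPKM in sham. Rbm4, an RNA-binding regulator of splicing, had 60.6, 651 and 209 CPM in TSCI and 67.0, 1163 and 1594 CPM in sham. Rbm4 has a closely related neighbour, Rbm4b, so its count is uncertain as well.

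Circles of several regulators of transcription differed widely between replicates of one group. Kat6b, a histone acetyltransferase, had 36.4, 513 and 196 CPM in TSCI and 64.2, 1400.2 and 1427 CPM in sham. Crebrf, a regulator of the transcription factor CREB3, had 15.9, 229 and 106 CPM in TSCI and 34.9, 1214 and 742 CPM in sham. Cdyl, a chromodomain corepressor, had 13.7, 161 and 47.0 CPM in TSCI and 15.9, 481 and 532 CPM in sham. In each of these 3 genes both lane 8 libraries were lowest and sham replicates 2 and 3 were highest. Matr3, an RNA-binding protein of the nuclear matrix, was steadier, at 223, 303 and 446 CPM in TSCI and 233, 247 and 346 CPM in sham. Among circles of neural and membrane proteins, Akap6, an anchor for protein kinase A, had 389, 309.9 and 327 CPM in TSCI and 586, 88.4 and 275 CPM in sham. Syt11, a synaptotagmin of vesicle traffic, had 473, 252 and 414 CPM in TSCI and 471, 70.2 and 269 CPM in sham. Sham replicate 2 was the lowest library for both. None of the 10 with the highest mean CPM passed the test between groups (edgeR adjusted p 0.461 to 0.959).

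Circles of hosts known for single-exon circRNAs were found for Hipk2, Hipk3, Zfp609, Mbnl1, Cdyl, Fat1, Fat3, Foxo3 and Rims2. The Hipk3 circle had 144, 455 and 447 CPM in TSCI and 159.8, 557 and 889 CPM in sham, a log2 fold change of -0.62 ± 0.73 (SE). Its relative Hipk2 had 237, 77.6 and 87.0 CPM in TSCI and 214, 61.1 and 28.8 CPM in sham. Hipk3 was thus lower, and Hipk2 higher, in the lane 8 library than in the other libraries of each group. Fat1, an atypical cadherin, gave a 3286-nt circle with 186, 117 and 136 CPM in TSCI and 137, 54.1 and 75.3 CPM in sham. The splicing factor Mbnl1, itself a promoter of back-splicing, had 99.8, 61.9 and 114 CPM in TSCI and 85.6, 54.1 and 35.0 CPM in sham. The 874-nt circle of Zfp609, a regulator of transcription, had 31.5, 38.9 and 31.0 CPM in TSCI and 30.6, 68.2 and 127 CPM in sham. Foxo3, a forkhead transcription factor, had 85.7, 24.8 and 14.4 CPM in TSCI and 57.0, 0 and 15.2 CPM in sham. The second circle of Zfp609 and the circles of Rims2 and Fat3 stayed at or below 29.5 CPM in every library. Slc8a1, Tulp4, Rtn4, Ankrd12 and Zkscan1 were listed with other circRNAs but with no single-exon one, and no entry was listed under Cdr1 or Cdr1os. None of these circles passed the test between groups (edgeR adjusted p 0.420 to 0.855 over those not already given).

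**Figure D2:**
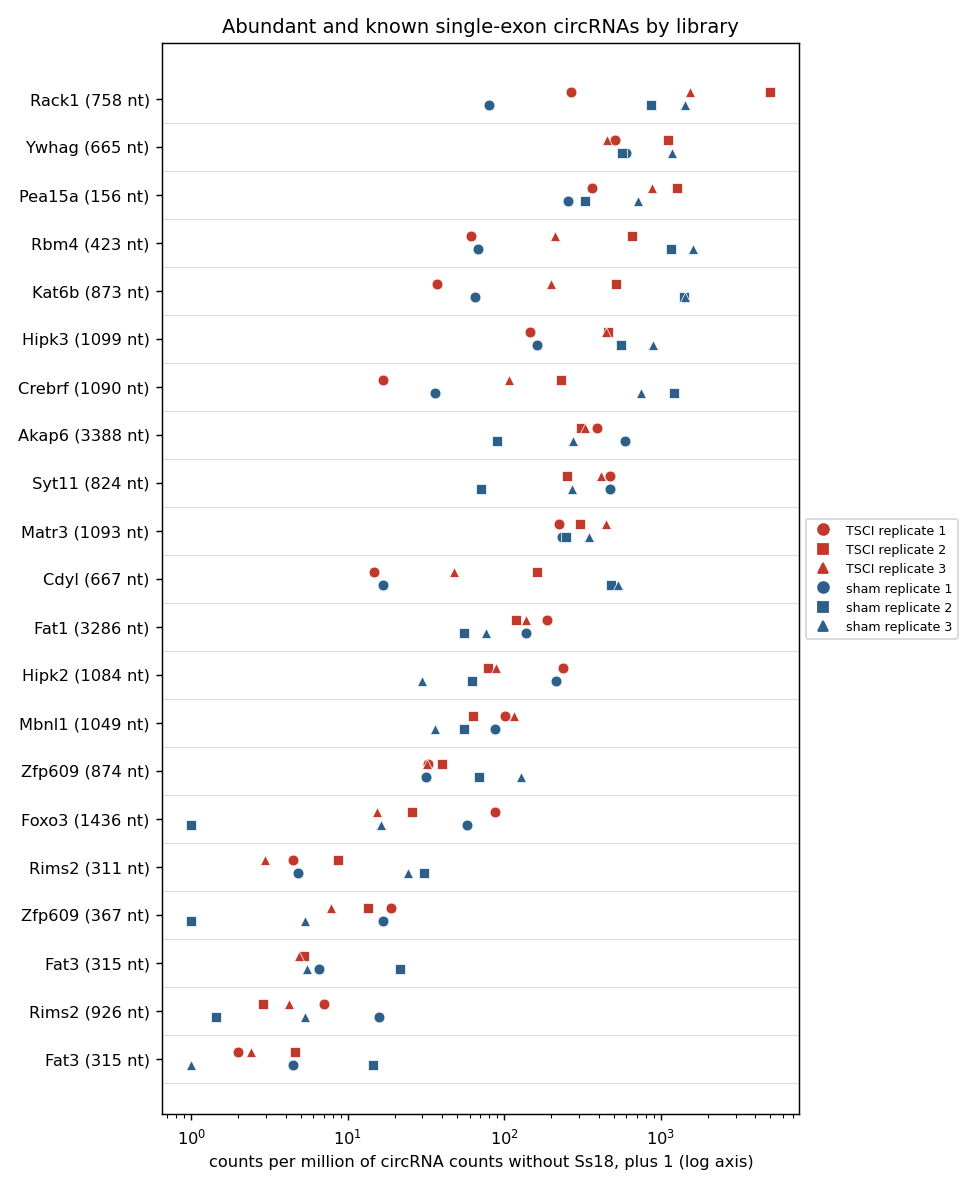
Level of the 10 single-exon circRNAs with the highest mean CPM and of those from known hosts, in CPM plus 1 on a log axis. There is 1 point per library, TSCI in red above sham in blue. Circles, squares and triangles are replicates 1 to 3. Kat6b, Crebrf and Cdyl have their lowest points in replicate 1 of both groups, whereas Matr3 stays between 223 and 446 CPM.

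Spread between libraries of one group was wider for single-exon than for multi-exon circRNAs. Of 838 single-exon circles with at least 10 counts, 163 (19.5%) were at least 4 times as high in both sham replicates 2 and 3 as in sham replicate 1, against 6.73% of multi-exon circRNAs. A level at most 25% of that in sham replicate 1 was found in both for 70 (8.35%), against 2.65%. In the TSCI group, replicates 2 and 3 were both at least 4 times replicate 1 for 89 circles (10.6%), against 1.79% of multi-exon circRNAs. These shares carry no test, and the lower counts of single-exon circles move with them: the median circle had a mean of 64.4 counts. Exon length moved with the library too. Circles over 1000 nt took 44.5%, 25.9% and 36.5% of single-exon counts in TSCI replicates 1 to 3, and 46.3%, 21.5% and 25.8% in sham replicates 1 to 3. Circles of 501 to 1000 nt took 26.0%, 42.9% and 33.2% in TSCI and 26.8%, 46.0% and 43.3% in sham. Long circles thus weighed most in both lane 8 libraries, and their part in the differences between groups was not tested.

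The share of circRNA counts that came from single-exon circles did not differ between injured and sham cord beyond the spread of the libraries. It was 2.14%, 3.36% and 2.52% in TSCI replicates 1 to 3 and 2.11%, 3.77% and 4.07% in sham replicates 1 to 3. The mean was 2.67% ± 0.624 over TSCI libraries, against 3.32% ± 1.06 over sham libraries (SD, n = 3 per group), a difference of -0.648 percentage points (two-sided exact permutation p = 0.4; the smallest this design allows is 0.1). Within lane 8 the difference was 0.03 points and within lane 1 it was -1.14. Among exonic circRNAs alone the difference was -0.649 points (exact permutation p = 0.4). Without sham replicate 1 the difference in the share was -1.25 points, and without sham replicate 3 it was -0.271.

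Single-exon circles with a count numbered 800, 831 and 831 of 840 in TSCI replicates 1 to 3, against 826, 641 and 790 in sham replicates 1 to 3. The means differed by 68.3 circles (two-sided exact permutation p = 0.2), but the direction turned within lane 8, where the difference was -26, and it was 41 within lane 1. The low value of sham replicate 2, in which 199 circles were at 0, set most of this: without it the difference was 12.7. After all libraries were thinned to 3311645 counts the difference was 67.0 circles. In sham replicate 2, 36.6% of circles of 200 nt or less were at 0, against 16.8% of those over 1000 nt. The median level of a single-exon circle was 9.33, 12.7 and 10.5 CPM in TSCI and 9.66, 11.9 and 15.2 CPM in sham, and these also overlapped.

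**Figure D3:**
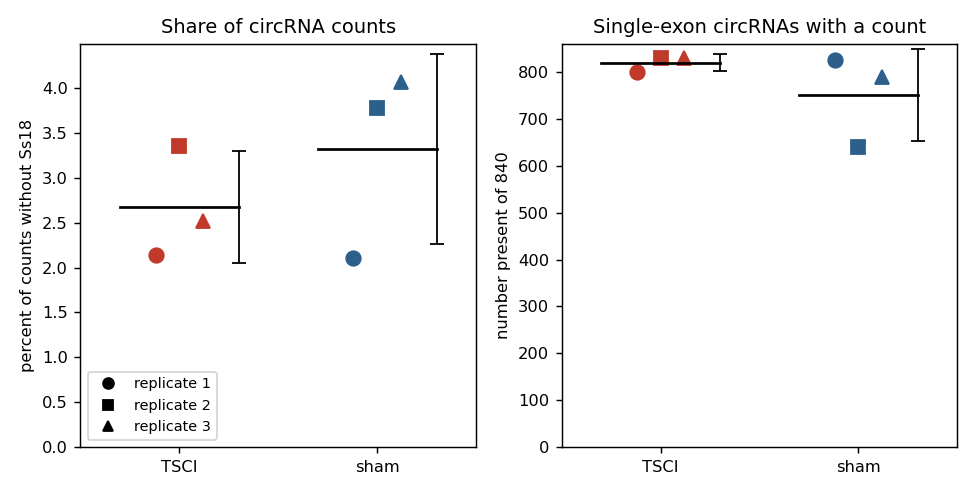
Left, percent of each library's circRNA counts (without Ss18) from single-exon circles; right, number of the 840 with a count. Points are libraries (circles, squares and triangles for replicates 1 to 3), lines are means and bars are SDs (n = 3); the groups overlap in both panels, and sham replicate 2 has the fewest circles present, 641.

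The next comparison asked which single circles differed after injury. After a filter on low counts (at least 10 in all and a count in at least 3 libraries), 831 of the 840 were tested together with all other circRNAs, 17363 in all. No single-exon circle passed an adjusted p of 0.05 in edgeR, as was the case for 0% of the 17363 circRNAs. At an unadjusted p under 0.05, 24 were higher in TSCI (2.89%), against 4.68% of all circRNAs, and 66 were lower (7.94%), against 7.04%. This split depended on single libraries: without sham replicate 3 there were 36 higher and 19 lower, and without TSCI replicate 3 there were 17 higher and 14 lower. DESeq2, run as an alternative with its own scaling, passed 8 as higher (0.963%, against 1.15% of all circRNAs) and 4 as lower (0.481%, against 0.299%). Every TSCI library exceeded every sham library for 52 circles (6.26%, against 10.2% of all circRNAs), and was below every sham library for 50 (6.02%, against 7.63%). The median log2 fold change was -0.22 over the single-exon circles tested and 0.01 over the multi-exon ones, and 55.7% of single-exon circles had a negative value, against 49.5% of all circRNAs. Without sham replicate 3 the single-exon median was -0.051, and with Ss18 included in the scaling it was -0.10. Circles over 1000 nt had a median of 0.26 (n = 137) and shorter ones a median of -0.37 (n = 694).

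Circles of 2 immune receptor genes were among the higher ones. In bulk tissue a change in the number of cells of a type and a change in RNA per cell cannot be told apart. Cd84, a signalling receptor of leukocytes, had 59.8, 72.8 and 94.5 CPM in TSCI, against 1.68, 0 and 0 CPM in sham. Each TSCI library was above each sham library, and the log2 fold change was 6.71 ± 1.04 (SE; edgeR adjusted p = 0.269; DESeq2 adjusted p = 6.65e-10). Sham replicate 1 held all the sham counts: without it the fitted value was 11.34, which then depends on the prior count, and with 1 library left out in turn the lowest was 6.22. Within lanes 8 and 1 the differences were 4.50 and 6.40. Milr1, an inhibitory receptor of mast cells and other myeloid cells, had 3.66, 51.9 and 23.2 CPM in TSCI and 0 in every sham library (edgeR adjusted p = 0.417; DESeq2 adjusted p = 4.15e-06). Set against a floor of 3 counts over the sham group, Milr1 was at least 116-fold higher. Without TSCI replicate 2, an alternative chosen after seeing the data, this bound was 75.6-fold. Within lanes 8 and 1 the differences of Milr1 were 2.22 and 5.27. Gm5150, a predicted protein-coding gene, had 5.12, 10.6 and 8.91 CPM in TSCI and 0 in every sham library, at least 39.3-fold higher by the same floor (edgeR adjusted p = 0.348; DESeq2 adjusted p = 0.0002). Its differences within lanes 8 and 1 were 2.61 and 3.42.

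Circles of signalling and regulatory genes came next. Dusp6, a phosphatase that switches off the kinase ERK, had 40.3, 77.3 and 107 CPM in TSCI, against 12.2, 20.9 and 12.3 CPM in sham. The groups did not overlap, and the log2 fold change was 2.31 ± 0.48 (SE; edgeR adjusted p = 0.417; DESeq2 adjusted p = 0.00382). Within lane 8 the difference was 1.65 and within lane 1 it was 2.80. Akna, an AT-hook protein of centrosomes and lymphoid cells, had 26.1, 36.5 and 16.8 CPM in TSCI, against 2.24, 0 and 1.72 CPM in sham, a log2 fold change of 4.24 ± 0.96 (SE; edgeR adjusted p = 0.420; DESeq2 adjusted p = 0.000356). Its differences within lanes 8 and 1 were 3.07 and 3.35. The other 3 circles that passed as higher in DESeq2, named after their values were seen, came from Flna, Ptbp1 and Ltbp1. The 161-nt circle of Flna, an actin-crosslinking filamin, had 48.6, 88.5 and 37.9 CPM in TSCI and 4.89, 0 and 4.59 CPM in sham. Ptbp1, a splicing repressor, had 26.7, 7.85 and 15.3 CPM in TSCI and 2.17, 1.61 and 3.73 CPM in sham. Ltbp1, which binds latent TGF-beta in the matrix, had 4.39, 7.25 and 0.594 CPM in TSCI and 0 in every sham library. For these 3 the DESeq2 adjusted p ran from 0.00192 to 0.0478.

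Several circles among the lower ones came from genes known from neural cells. Gpc5, a cell-surface proteoglycan known from astrocytes, had 13.7, 19.0 and 21.4 CPM in TSCI, against 43.3, 59.2 and 66.9 CPM in sham. The groups did not overlap, the log2 fold change was -1.64 ± 0.37 (SE; edgeR adjusted p = 0.420; DESeq2 adjusted p = 0.0152), and the differences within lanes 8 and 1 were -1.59 and -1.68. Brinp1, a neuronal inhibitor of cell proliferation, had 0.976, 0.604 and 2.38 CPM in TSCI, against 10.3, 14.5 and 16.1 CPM in sham, a log2 fold change of -3.29 ± 0.71 (SE; edgeR adjusted p = 0.420; DESeq2 adjusted p = 0.00391). Within lanes 8 and 1 Brinp1 differed by -2.52 and -2.78. Grm7, a presynaptic glutamate receptor, had 39.5, 25.7 and 35.8 CPM in TSCI, against 60.6, 108 and 97.4 CPM in sham (log2 fold change -1.40; edgeR adjusted p = 0.420). Its DESeq2 adjusted p was 0.0681, and its lane 8 and lane 1 differences were -0.60 and -1.63. Pdzd2, a PDZ-domain scaffold, had 4.88, 3.02 and 4.60 CPM in TSCI, against 8.72, 26.0 and 37.9 CPM in sham (edgeR adjusted p = 0.420; DESeq2 adjusted p = 0.0343). Its log2 difference was -0.72 within lane 8 and -3.01 within lane 1. Chn1, a neuronal regulator of the GTPase Rac, had 2.56, 1.66 and 2.62 CPM in TSCI, against 5.03, 22.5 and 16.4 CPM in sham (edgeR adjusted p = 0.420; DESeq2 adjusted p = 0.0528). It differed by -0.76 within lane 8 and -2.47 within lane 1. For Chn1 and Pdzd2 sham replicate 1 lay closest to the TSCI values. Kif26b, a kinesin-family protein that also passed as lower in DESeq2 (adjusted p = 0.0427) and was named after its values were seen, had 3.42, 14.5 and 3.41 CPM in TSCI and 18.5, 56.8 and 61.7 CPM in sham.

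**Figure D4:**
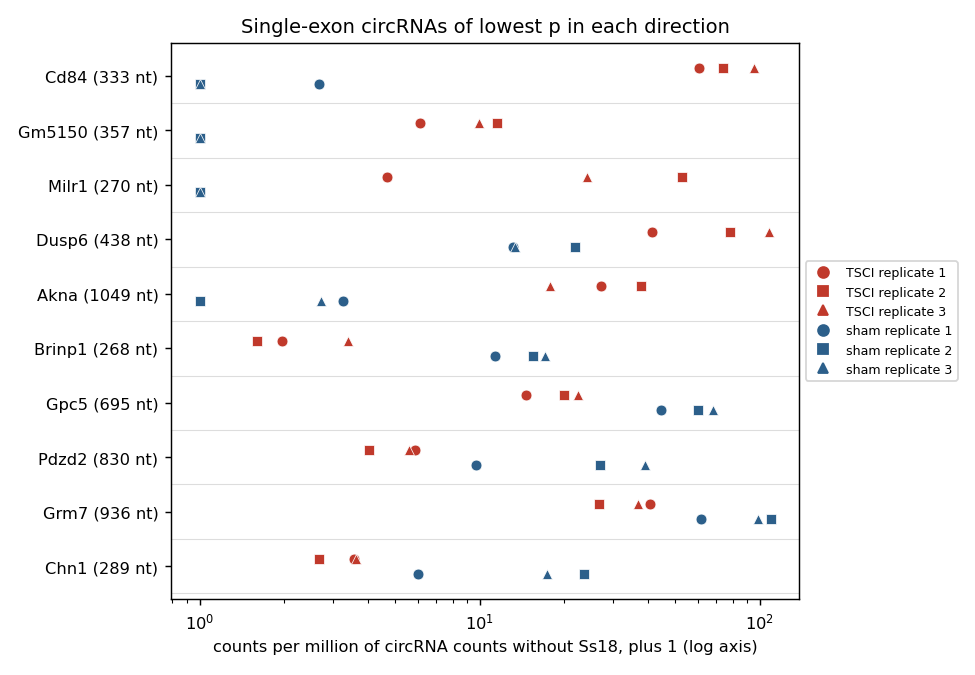
Level of the 5 single-exon circRNAs of lowest p in each direction, in CPM plus 1 on a log axis, 1 point per library, TSCI in red above sham in blue; circles, squares and triangles are replicates 1 to 3. In all 10 the groups do not overlap, and the sham points of Gm5150 and Milr1 all stand at 0 CPM.

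In the linear RNA 3 of 5 macrophage markers passed as higher in TSCI, and no gene of the other marker sets given here passed the test (limma). The summed FPKM of 5 macrophage markers was 161, 479 and 329 in TSCI and 5.06, 4.33 and 6.75 in sham. Of the 5, Cd68 was listed at 0 in sham replicate 2. The sum of 4 microglial markers was 87.3, 57.5 and 100.02 FPKM in TSCI, against 40.9, 37.0 and 19.7 in sham. For 5 neuronal markers it was 480.3, 263 and 583 FPKM in TSCI, against 1007, 325 and 508 in sham. For 4 astrocyte markers it was 1327, 255 and 571 FPKM in TSCI, against 1276, 201 and 434 in sham. Oligodendrocyte markers (5 genes) summed to 2055, 1279 and 4943 FPKM in TSCI, against 6222, 879 and 1012 in sham, so that markers of cord tissue were present in every library. Skeletal muscle markers (5 genes) summed to 0.334, 7.88 and 1.04 FPKM in TSCI, against 3.10, 81.2 and 21.3 in sham, highest in sham replicates 2 and 3. Of 4 erythrocyte markers the sum was 6949, 136645 and 43599 FPKM in TSCI, against 2371, 30099 and 21545 in sham, lowest in the lane 8 library of each group. Their part in the levels of single-exon circles was not tested.

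Grouped by host, circles of neuronal and synaptic genes mostly had lower values in TSCI. From a list of 49 such genes, 18 hosted 24 single-exon circles, of which 18 had a negative log2 fold change (median -0.93, against -0.22 over all single-exon circles tested, of which 55.7% were negative). This list and the host lists below were chosen with earlier results of these data known. Several circles also shared a host, so the shares are descriptive and carry no test. At an unadjusted p under 0.05, 6 of the 24 were lower and 0 higher, beside 7.94% lower and 2.89% higher over all single-exon circles tested. None passed an adjusted p in edgeR or DESeq2. Scn8a, a sodium channel of axons, had 9.22, 8.64 and 6.28 CPM in TSCI and 13.8, 27.1 and 24.8 CPM in sham. Nlgn1, a postsynaptic adhesion protein, had 22.2, 72.2 and 46.3 CPM in TSCI and 37.2, 264 and 214 CPM in sham. Grin2b, a subunit of the NMDA receptor, had 3.54, 35.5 and 9.65 CPM in its 599-nt circle in TSCI and 15.5, 145 and 105 CPM in sham. Elavl2, a neuronal RNA-binding protein, had 2.83, 22.2 and 6.47 CPM in TSCI and 7.10, 107 and 96.2 CPM in sham. Only Scn8a, Elavl4 and the 940-nt circle of Grm5 had every TSCI library below every sham library. Map2, a dendritic microtubule protein, showed no such difference, with 49.1, 55.2 and 57.8 CPM in TSCI and 61.9, 52.5 and 46.8 CPM in sham. Its log2 fold change was 0.008. The other positive values were 1.08 for the 250-nt circle of Grm5, 0.82 for the 429-nt circle of Grin2b, 0.42 for Kif1a, 0.20 for Rbfox1 and 0.05 for Gabrb1. Grin2b thus had circles in both directions.

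Glial and immune lists held few single-exon circles. Of 14 astrocyte genes, 4 hosted 1 each: 3 had a negative log2 fold change, and Gpc5 and Slc4a4 were lower at an unadjusted p under 0.05. Slc4a4, a bicarbonate transporter, had 6.49, 4.51 and 6.42 CPM in TSCI and 11.8, 13.8 and 14.2 CPM in sham, with no overlap. Aqp4, the water channel of astrocyte endfeet, had 105, 296 and 243 CPM in TSCI and 83.5, 133 and 250.2 CPM in sham, which overlapped. Of 22 oligodendrocyte and myelin genes, 2 hosted a circle. Qk, an RNA-binding protein of myelin that also promotes back-splicing, had 66.6, 31.8 and 37.0 CPM in TSCI and 68.7, 49.5 and 41.9 CPM in sham. Sox6, a transcription factor of oligodendrocyte precursors, had 2.30, 11.9 and 10.1 CPM in TSCI and 1.51, 8.26 and 2.44 CPM in sham. None of 20 listed macrophage and microglia genes and none of 10 cell division genes hosted a single-exon circle; Cd84 and Milr1 were not on these lists. Chromatin and transcription genes hosted 19 circles from 13 of 33 listed genes, of which 13 had a negative log2 fold change (median -0.43) and 2, from Chd9 and Ash1l, were lower at an unadjusted p under 0.05. Over all single-exon circles tested, 55.7% were negative and 7.94% were lower by that measure. The circles concerned were those of 168 nt (Chd9) and 517 nt (Ash1l). Other circles of these genes had log2 fold changes of 1.01 (Chd9, 1614 nt), 0.20 (Ash1l, 4558 nt) and -0.92 (Ash1l, 736 nt).

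The 3 hosts named for the most single-exon circles each gave several with different levels. Ash1l, a histone H3 lysine methyltransferase, gave 3. Its 4558-nt exon 3 had 193, 104 and 97.5 CPM in TSCI and 215, 57.6 and 71.2 CPM in sham, highest in both lane 8 libraries. The 736-nt exon 5 had 59.5, 65.2 and 37.4 CPM in TSCI and 53.4, 142 and 112 CPM in sham, and the 517-nt exon 2 had 22.4, 28.4 and 28.6 CPM in TSCI and 32.4, 115 and 42.4 CPM in sham. Grm5, a postsynaptic glutamate receptor, gave 3 as well. The 940-nt exon 9 had 20.6, 29.9 and 52.8 CPM in TSCI, against 70.4, 125 and 129 CPM in sham, a log2 fold change of -1.65 ± 0.47 (SE; edgeR adjusted p = 0.420), and the differences within lanes 8 and 1 were -1.73 and -1.62. Its 856-nt circle had 5.00, 39.3 and 16.9 CPM in TSCI and 13.5, 117 and 103 CPM in sham, and its 250-nt circle stayed at or below 1.90 CPM. Insr, the insulin receptor, gave circles of 552, 322 and 275 nt. The 552-nt one, exon 2, had 25.6, 54.7 and 28.9 CPM in TSCI and 26.7, 111 and 83.5 CPM in sham, while the others reached at most 22.8 CPM.

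The circles were set beside the linear output of their hosts, taken as the summed FPKM of all isoforms of the gene. This sum includes linear isoforms across the same exon, and both tables were scaled apart by the authors, so ratios are descriptive. Of 839 circles with a host in the isoform table, 55, 200 and 144 exceeded their host's FPKM in TSCI replicates 1 to 3, and 69, 226 and 247 did in sham replicates 1 to 3. The median log2 ratio of circle to host was -2.17, -0.97 and -1.35 in TSCI and -1.79, -1.36 and -0.97 in sham, again lowest in both lane 8 libraries. Across circles within a library, the Spearman correlation of circle and host FPKM was 0.251 to 0.431 (n = 839 in each library, circles of 1 gene sharing a host value). In 10 circles the circle was above its host in all 6 libraries: Pea15a, Rbm4, Crk, Atp2b4, N4bp1, Fbxo2, Pex13, Paqr8, Plcxd3 and Rragd. Crk, an adaptor of tyrosine kinase signalling, had circle values of 26.9, 43.6 and 72.2 FPKM in TSCI, against 27.3, 18.1 and 23.3 FPKM in sham. Its gene had 20.1, 24.3 and 18.3 FPKM in TSCI, against 12.9, 9.82 and 8.98 FPKM in sham.

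No host of a single-exon circle passed the test on linear RNA (limma, adjusted p under 0.05), in which 24 of 19072 genes (0.126%) passed as higher and 0 as lower; 1371 (7.19%) were higher and 187 (0.98%) lower at an unadjusted p under 0.05. The hosts of the Cd84, Milr1 and Gm5150 circles had the lowest adjusted p among those named. The Cd84 gene had 18.6, 14.4 and 32.1 FPKM in TSCI, against 1.75, 0.619 and 0.797 FPKM in sham (log2 fold change 3.83 ± 0.75; limma adjusted p = 0.0722). The Milr1 gene had 8.60, 10.0 and 7.47 FPKM in TSCI, against 0.166, 0 and 0.0900 FPKM in sham (limma adjusted p = 0.0722). The Gm5150 gene had 9.70, 3.89 and 7.98 FPKM in TSCI, against was listed at 0 in every sham library (limma adjusted p = 0.0858). Over 828 circles with both values, the Spearman correlation of circle and host log2 fold change was 0.576, circles of 1 gene sharing a host value. For the lower circles of lowest p, host and circle values differed in size. The Gpc5 gene had 313, 24.2 and 85.2 FPKM in TSCI, against 633, 54.0 and 80.0 FPKM in sham, a log2 fold change of -0.69 ± 1.11 (SE), with overlap. The Brinp1 gene had 118, 6.47 and 19.5 FPKM in TSCI, against 93.6, 9.30 and 24.6 FPKM in sham, a log2 fold change of -0.16 ± 1.05 (SE). For Grm7, Pdzd2 and Chn1 the host values were -0.13, -0.45 and 0.20, none past the threshold. Circle and host come from the same libraries and different tables, and the difference between them was not tested.

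**Figure D5:**
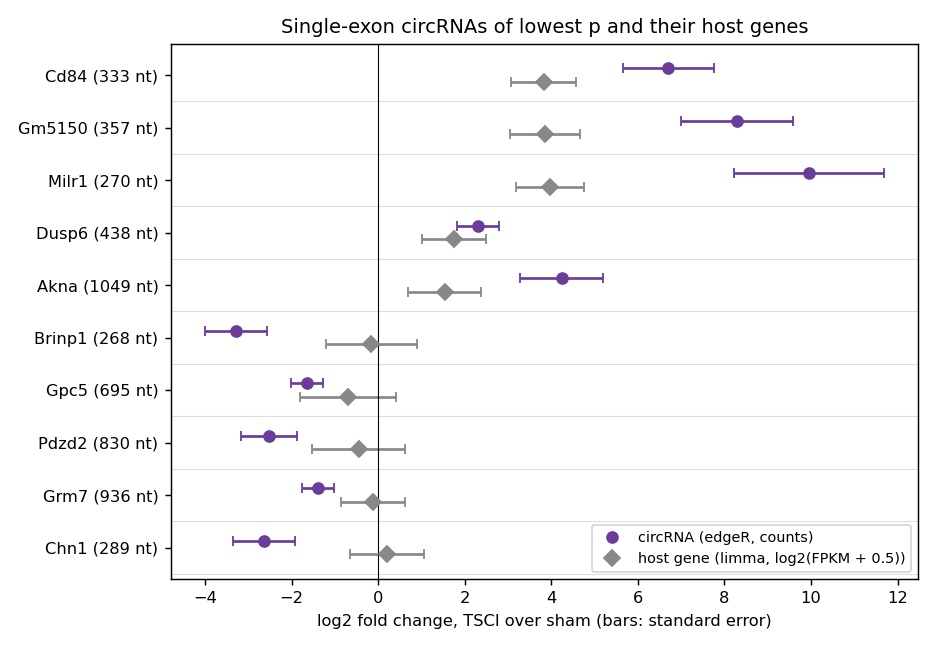
Log2 fold change, TSCI over sham, of the 10 single-exon circRNAs of lowest p (violet circles; edgeR) and of their host genes (grey diamonds; limma on log2 of FPKM plus 0.5), with standard errors. Cd84 stands at 6.71 for the circle and 3.83 for its gene, and Brinp1 at -3.29 for the circle and -0.16 for its gene; values of genes listed at 0 in sham depend on the offset used.

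Genes that form, export or degrade circRNAs did not pass the test either. Of 29 listed, 28 were tested in the linear RNA and 0 passed (limma, smallest adjusted p 0.551; 1 higher and 1 lower at an unadjusted p under 0.05). Their median log2 fold change was 0.67, beside 0.47 over all genes. The one lower at an unadjusted p was Nova2, a neuronal splicing factor, with 2.12, 4.93 and 3.21 FPKM in TSCI, against 6.34, 19.0 and 14.8 FPKM in sham. Nono, an RNA-binding protein of nuclear paraspeckles, was the higher one, with 41.9, 17.0 and 72.1 FPKM in TSCI, against 33.2, 5.03 and 3.54 FPKM in sham. Qk had 48.7, 22.7 and 59.0 FPKM in TSCI, against 83.5, 28.3 and 13.3 FPKM in sham, and Adar, the enzyme that edits adenosine in paired RNA, had 14.5, 8.50 and 8.56 FPKM in TSCI, against 23.0, 3.65 and 12.6 FPKM in sham. Both overlapped between groups.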

How the data were processed

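Per the labels' protocols, total RNA was extracted with Trizol, depleted of ribosomal RNA and made into stranded libraries; no RNase R step is named. HISAT2, StringTie and TopHat appear in the submitters' processing notes. Neither a circRNA caller nor a build is named in the sources used here. The deposited circRNA counts were estimated counts: 56.6% of the values of single-exon circRNAs were whole (within 1e-06), while the counts of all circRNAs summed to a whole number in 6 of 6 libraries (within 0.001). They were rounded and tested over all circRNAs with edgeR 4.0.16 (quasi-likelihood, library size the summed counts without Ss18, no further scaling), with DESeq2 1.42.0 as an alternative. DESeq2 used its own median-ratio scaling in place of these library sizes, so it changed both test and scaling. The authors' coverage (signal) columns were not used. Gene values were sums of the authors' FPKM over isoforms, tested with limma 3.58.1 (trend) on log2(FPKM + 0.5) at a mean FPKM of at least 0.5, a scale that understates changes of low genes. Adjusted p-values are Benjamini-Hochberg, threshold 0.05. Single values per library had exact permutation tests. R 4.3.3 and Python 3.11.15 were used, and the fits were tested on simulated data. Sequences were read from GENCODE M21 transcripts. Other exons were the distinct internal exons of basic protein-coding transcripts.

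The members and gene lists were chosen with earlier results of these data known. Circles named were the 10 with the highest mean CPM and the 5 of lowest p in each direction (fewer than 4 passed). Up to 2 per known host and all from the 3 hosts with the most circles were named as well. Alternatives changed scaling, filter, rounding, test, lane, replicate block and libraries.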

Additional observations from a re-analysis of the deposited data

How the results depend on the processing

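No single-exon circle passed in edgeR under TMM scaling, Ss18 included, other filters, unrounded counts, a lane 8 covariate, no lane 8 libraries or any 1 library left out; DESeq2 passed 12 (8 higher, 4 lower). The count at an unadjusted p under 0.05, 90 as reported, was 158 in DESeq2, 173 with the lane 8 covariate, 226 without lane 8 and, with 1 library left out, 31 (without TSCI replicate 3) to 261 (without sham replicate 1). The cause was not tested. The replicate numbers did not pair the libraries: correlations of same-numbered deviations were 0.67, 0.46 and 0.05. With the replicate block 0 passed and 160 had an unadjusted p under 0.05 (50 higher, 110 lower), the median log2 fold change was -0.039, and the host genes Cd84, Milr1 and Gm5150 passed. Over all alternatives, 13 values of named circles or of hosts passed the threshold, of which 8 were values of circles. Host genes thus also passed under settings other than the replicate block. With 1 library left out, the difference in share ranged from -1.25 to -0.271 points (exonic only, -1.26 to -0.269) and the difference in circles present from 12.7 to 105. With Ss18 included the share difference was -0.211.

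Over 40 named circles and 600 values, 13 changed sign, in 8 circles. The 10 of lowest p kept their sign, but they were picked by p in these same libraries. Their groups did not overlap, so leaving out a library could hardly turn the sign, and no robustness is read from it. For those 8, ranges with 1 library left out were -0.70 to 0.24 for Ywhag, -0.33 to 0.91 for Akap6, -0.064 to 0.44 for Matr3 and -0.19 to 1.03 for Ash1l (4558 nt). They were -0.30 to 1.57 for Hipk2, -0.31 to 2.45 for Foxo3, -1.37 to 0.63 for Rims2 (926 nt) and -2.16 to 0.092 for Fat3 (exon 4, 315 nt). The Fat3 circle of exon 2, also 315 nt, ranged from -1.66 to -0.33. Rims2 (926 nt) was at 0.086 without lane 8 libraries. Among host genes the ranges were -1.27 to 0.77 for Brinp1, -0.48 to 0.87 for Chn1, -1.61 to 0.40 for Gpc5, -0.51 to 0.25 for Grm7 and -1.46 to 0.59 for Pdzd2; Chn1 was at -0.72 with only isoforms that match the annotation and at -0.25 with median-ratio scaling. The cause was not tested. Depth limits the circles of lowest counts, where 0 may mean undetected.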
